A study of Mus musculus with 12 samples.

Results

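Microtubules are hollow filaments of alpha- and beta-tubulin that serve as tracks inside the cell. Kinesins carry cargo mostly toward the fast-growing end of these tracks and cytoplasmic dynein carries cargo back. In neurons, tau and other microtubule-associated proteins bind the filaments, stathmins hold free tubulin dimers, and neurofilaments set the width of the axon. The genes of this machinery were followed across the brain and stomach of mice given chitosan, a polysaccharide made from chitin, or saline.

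The genes were chosen by symbol alone: tubulins (Tuba, Tubb and Tubg with a number), kinesins (Kif, without Kif2a), stathmins, neurofilament subunits, Mapt, the Mtap genes and the dyneins (Dync and Dynl). The rule found 75 genes of the 16675 named genes on the array, with 100 of its 29922 probes. Each gene was represented by its probe of highest mean log2 intensity over the 12 arrays. By role these were 5 alpha-, 7 beta- and 2 gamma-tubulins, 15 kinesins of transport, 10 of cell division and 7 others, 12 microtubule-associated proteins, 11 dynein chains, 3 stathmins and 3 neurofilament subunits. No probe was named for Tuba1b, Tubb2c, Stmn1 or Dynll1.

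The mice were male FVB transgenic animals, heterozygous for a luciferase reporter driven by response elements of the peroxisome proliferator-activated receptors before the tk promoter, aged 6 to 8 weeks. All 4 groups carried this reporter. Chitosan mice received 0.2 g/kg chitosan under the skin, mock mice received saline, and brain and stomach were taken on day 3. Each group (chitosan brain, mock brain, chitosan stomach, mock stomach) had 3 arrays from independent mice, on the single-color Mouse Whole Genome OneArray. The sources used here do not tell whether a brain and a stomach came from the same mouse. RNA was taken from the tissue as a whole, and fewer cells of a type and less RNA per cell cannot be told apart in such samples.

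All values below are the deposited normalized intensities. The lowest intensity of an array was 34.3 to 35.3, the median 47.0 to 47.8 and the highest 28367.2 on all 12 arrays. A gene was taken as above background in a group when its mean exceeded 2 times the lowest intensity of an array, taken from the array of that group where it was highest, which gave lines of 69.0 to 70.5. Arrays of the same group correlated at 0.796 to 0.951, with chitosan brain 3 and chitosan stomach 3 lowest against their own groups (median r of 0.838 and 0.822). Summed neuron markers (7 genes) were 5955 to 8322 in chitosan brains and 6108 to 8573 in mock brains, against 453 to 1108 in chitosan stomachs and 427 to 798 in mock stomachs. Snap25 gave the largest part of the brain sums, with means of 4932 in chitosan and 4960 in mock brains. Elavl3 gave the largest part of the stomach sums, with means of 365 in chitosan and 262 in mock stomachs, against 473 and 393 in the brains. The neuron markers Gad1 and Syp, and the astrocyte markers Gfap, Aqp4, Slc1a2 and Aldoc, were not above background in any group.

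Most of these genes gave little signal. Of the 75 genes, 26 (34.7%) were above background in at least 1 group, against 22.7% of all named genes, and 49 were above it in none. The 26 comprised 8 seen only in the brain, 2 seen only in the stomach (Tuba1c and Tubb6) and 16 seen in both. Just inside the line was Kif22, whose highest group mean was 74.0, in mock stomachs. Just outside was Dynlt3, at 69.9 in chitosan stomachs. The 49 dim genes had group means of 38.2 to 69.9, close to the floor of the arrays.

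Several genes that define neurons were among the dim ones. Tuba1a, the main alpha-tubulin of growing neurons, averaged 53.0 ± 5.73 in chitosan brains and 47.6 ± 2.54 in mock brains (SD, n = 3 each), close to its 47.7 ± 4.13 and 47.6 ± 2.87 in chitosan and mock stomachs. The light and medium neurofilament subunits Nefl and Nefm, with highest group means of 50.2 and 44.5, and Mtap2 (now Map2), a marker of dendrites, with 55.9, were likewise near the array median. Tubb2b, Stmn4, Mtap1a, Mtap1b, Mtap6 and the axonal motors Kif1a and Kif5c were also below the line in every group. Outside the neuronal genes, the kinesin Kif5b was below it too, but closer (68.7 in chitosan stomachs). Of the 10 kinesins of cell division, among them the spindle motors Kif11, Kif20a and Kif23, only Kif22 passed the line. Markers of dividing cells behaved alike, with 0 of 8 above background in any group.

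The 26 genes above background are plotted by array, where the brain arrays of several tubulins, kinesins and stathmins stand out.

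**Figure D1:**
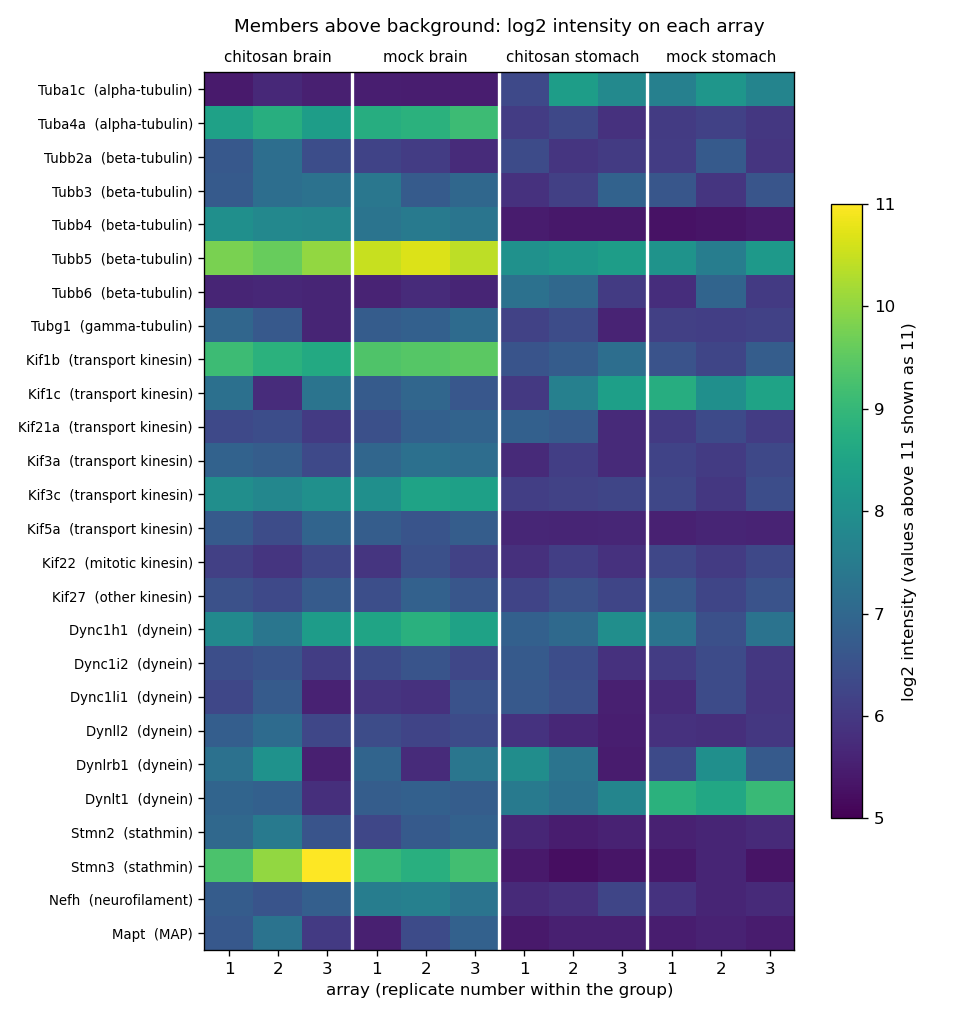
Log2 intensity (color) of the 26 genes above background, in rows grouped by role, on each of the 12 arrays, in columns by group and replicate number. Stmn3, Tubb5, Kif1b, Tuba4a, Tubb4 and Kif3c are bright in the 6 brain arrays, while Tuba1c is bright only in stomach arrays, and values above 11 (Stmn3 on chitosan brain 3) are drawn as 11.

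The comparison of brain with stomach asked which of these genes differ between the organs, separately in chitosan and in mock mice. In chitosan mice, 12 of 75 genes (16%) passed the test at an adjusted p of 0.05 (limma over all 29922 probes, Benjamini-Hochberg), against 5.97% of all named genes. Of these, 11 were higher in the brain (3.45% of all genes were) and 1 was lower (2.52% of all genes). In mock mice, 13 of 75 (17.3%) passed, against 7.96% of all genes, 11 of them higher (3.69% of all genes) and 2 lower (4.26%). Calls in both treatments covered 10 genes higher in the brain (Kif1b, Kif3a, Kif3c, Kif5a, Nefh, Stmn2, Stmn3, Tuba4a, Tubb4 and Tubb5) and 1 gene lower (Tuba1c). Over all 75 genes the median log2 difference was 0.08 in both chitosan and mock mice, so most of the genes, which are dim, lay near 0. With only the 6 mock arrays, 16 genes were called in mock mice, with Dynll2 (adjusted p = 0.0371), Kif1c (0.017) and Tubg1 (0.0223) gained. With the replicate number as a block, 11 genes were called in chitosan mice and 13 in mock mice. With only the 6 chitosan arrays, 7 were called with the block and 6 without it, and Kif1b (adjusted p = 0.0745), Kif3a (0.0806), Nefh (0.0825), Tuba1c (0.0547) and Tubb5 (0.0832) were not among the 7.

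Tubulin isotypes divided by organ. Tubb5, a beta-tubulin used by most cell types, had intensities of 888, 782 and 1042 in chitosan brains, against 261, 289.5 and 322 in chitosan stomachs. Its mock arrays read 1454, 1644 and 1356 in brain, against 271, 186 and 298 in stomach. Every brain array lay above every stomach array, and the log2 difference was 1.63 ± 0.31 in chitosan mice (SE, limma adjusted p = 0.00916) and 2.58 ± 0.31 in mock mice (adjusted p = 2.74e-04). A dimmer second probe of Tubb5 gave 0.71 (limma adjusted p = 0.392) and 0.84 (adjusted p = 0.196) in chitosan and mock mice.

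Tubb4 (now Tubb4a), a beta-tubulin of neurons and oligodendrocytes, had 252, 222 and 215 in chitosan brains, against 43.8, 41.8 and 41.5 in chitosan stomachs. In mock mice it had 158, 178 and 159.8 in brain, against 39.5, 40.4 and 43.0 in stomach. All 6 stomach arrays were under the background line, so the difference is a lower bound: taking each such array at its line, Tubb4 was at least 3.31-fold higher in chitosan brains (limma adjusted p = 1.62e-06) and at least 2.40-fold higher in mock brains (adjusted p = 5.55e-06).

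Tuba4a, an alpha-tubulin whose gene does not encode the usual last tyrosine, had 347, 435 and 326 in chitosan brains, against 66.5, 79.1 and 57.7 in chitosan stomachs, of which 1 was above the line. Mock brains gave 424, 455 and 551, against 65.9, 71.5 and 62.9 in mock stomachs, again with 1 above the line. The organs did not overlap, and the log2 difference was 2.45 ± 0.27 in chitosan mice (limma adjusted p = 1.58e-04) and 2.83 ± 0.27 in mock mice (adjusted p = 5.2e-05).

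Tuba1c, another alpha-tubulin, ran the other way. It had 43.0, 51.8 and 46.0 in chitosan brains, against 80.7, 324 and 226 in chitosan stomachs, and 45.2, 45.0 and 45.0 in mock brains, against 195, 287 and 209.9 in mock stomachs. The 6 brain arrays were all below the line and the 6 stomach arrays all above it, with chitosan stomach 1 closest to it. Tuba1c was lower in the brain by at least 2.62-fold in chitosan mice (limma adjusted p = 0.015) and at least 3.29-fold in mock mice (adjusted p = 0.00383).

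Of the other tubulins above background, Tubb6, a beta-tubulin of many non-neuronal cells, was under the line on all brain arrays (48.6 to 53.2). It reached 151, 130.0 and 66.2 in chitosan stomachs and 55.2, 123 and 65.1 in mock stomachs. Some stomach arrays of both treatments were thus also under the line, and no bound is given. Tubb6 did not pass the test in chitosan mice (limma adjusted p = 0.0807) or in mock mice (adjusted p = 0.353). Tubb3, the beta-tubulin used as a marker of neurons, averaged 134 ± 25.8 in chitosan brains against 82.5 ± 32.3 in chitosan stomachs (log2 difference 0.75 ± 0.31, adjusted p = 0.315), and 134 ± 30.8 in mock brains against 84.5 ± 20.2 in mock stomachs (0.67 ± 0.31, adjusted p = 0.292). Tubg1, the gamma-tubulin that seeds new microtubules, gave 0.36 ± 0.31 in chitosan mice and 0.76 ± 0.31 in mock mice, with adjusted p of 0.741 and 0.223 (0.0223 with only the 6 mock arrays).

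The promoters of the 4 tubulins called in both treatments are shown because they place brain-high and stomach-high isotypes side by side. Each sequence runs from 120 bases before to 30 bases after an annotated start (RefSeq, GRCm38.p6), which for Tuba4a lies inside the gene and not at its outermost end, and capitals mark TGACG, the core of the cAMP response element, on either strand. Tuba1c lies at chr15:99029771-99029920 on the plus strand, Tuba4a at chr1:75219265-75219414, Tubb4 at chr17:57087571-57087720 and Tubb5 at chr17:35838272-35838421, these 3 on the minus strand.
Tuba1c: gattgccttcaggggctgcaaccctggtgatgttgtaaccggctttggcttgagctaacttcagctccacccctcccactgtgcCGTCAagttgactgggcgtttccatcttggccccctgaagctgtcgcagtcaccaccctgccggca
Tuba4a: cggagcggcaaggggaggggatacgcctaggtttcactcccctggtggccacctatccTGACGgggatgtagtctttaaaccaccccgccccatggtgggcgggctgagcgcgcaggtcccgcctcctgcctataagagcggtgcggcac
Tubb4: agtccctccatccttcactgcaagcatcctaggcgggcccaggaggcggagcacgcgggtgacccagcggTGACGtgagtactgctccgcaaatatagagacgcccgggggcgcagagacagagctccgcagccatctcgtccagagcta
Tubb5: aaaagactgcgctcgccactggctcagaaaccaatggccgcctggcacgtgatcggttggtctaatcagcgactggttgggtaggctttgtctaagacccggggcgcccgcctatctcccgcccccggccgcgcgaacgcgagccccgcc

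In this window TGACG occurs 1 time in Tuba1c, Tuba4a and Tubb4 and 0 times in Tubb5. Over windows from 250 bases before to 50 after the start, searched on both strands, TGACG was found in 25 of 66 promoters of these genes (37.9%) and in 20.8% of all 32851 promoters. GGGCGG, the letters bound by Sp1, was found in 60.6% of the promoters of these genes and 35.7% of all, and TATAAA in 12.1% and 13.6%. The promoters came from 57 of the 75 genes, and a match describes letters, not a bound site.

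Among the motors, 4 of the 15 transport kinesins were higher in the brain in both treatments. Kif1b, a motor for mitochondria and synaptic vesicle precursors, had 558, 455 and 403 in chitosan brains, against 93.8, 107 and 145 in chitosan stomachs. In mock mice it had 649, 689 and 713 in brain, against 92.1, 76.1 and 109.7 in stomach. The organs did not overlap, and the log2 difference was 2.04 ± 0.33 in chitosan mice (limma adjusted p = 0.0029) and 2.90 ± 0.33 in mock mice (adjusted p = 1.79e-04). The dimmer probes of Kif1b gave smaller differences. One gave 0.14 in chitosan mice (adjusted p = 0.504) and 0.44 in mock mice (adjusted p = 0.00438). The other, never above background, gave 0.37 (adjusted p = 0.505) and 0.31 (adjusted p = 0.456).

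Kif3c and Kif3a are subunits of kinesin-2, which carries vesicles and builds cilia. Kif3c had 252, 219 and 257 in chitosan brains, against 69.0, 72.9 and 76.1 in chitosan stomachs, and 253, 359 and 339 in mock brains, against 77.0, 62.5 and 85.9 in mock stomachs. Its second probe also passed the test, with a log2 difference of 1.48 in chitosan mice (limma adjusted p = 9.04e-04) and 1.40 in mock mice (adjusted p = 0.00124), against 1.74 (adjusted p = 0.00103) and 2.07 (adjusted p = 2.41e-04) for the brighter probe. That second probe was under the line on all chitosan stomach arrays. Kif3a differed by less, 0.82 ± 0.18 in chitosan mice (adjusted p = 0.0248) and 0.92 ± 0.18 in mock mice (adjusted p = 0.00984). Of its other probes, 1 passed in both (0.69 and 0.69), with all stomach arrays and chitosan brain 3 under the line. The remaining probe, never above background, gave 0.03 in chitosan mice (adjusted p = 0.937) and 0.09 in mock mice (adjusted p = 0.475).

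Kif5a, the kinesin-1 heavy chain of neurons, had 104, 84.0 and 123 in chitosan brains, against 49.8, 49.3 and 50.2 in chitosan stomachs. Mock brains had 109, 93.8 and 108, against 47.1, 48.9 and 48.2 in mock stomachs. The stomach arrays were all under the line and close together, which gives at least 1.48-fold higher in chitosan brains (limma adjusted p = 4.87e-04) and at least 1.50-fold higher in mock brains (adjusted p = 2.68e-04). Kif1c, a widely expressed vesicle motor, was the exception in direction among the transport kinesins above background in mock mice: it had 105, 126 and 99.8 in mock brains, against 427, 255 and 358 in mock stomachs, without passing the test (log2 difference -1.62 ± 0.58, adjusted p = 0.162, and 0.017 with only the 6 mock arrays). Its second probe gave -0.20 in mock mice (adjusted p = 0.746) and 0.18 in chitosan mice (adjusted p = 0.89).

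The 2 bright stathmins and the heavy neurofilament subunit were brain genes. Stmn3 (SCLIP), a neuronal stathmin, had 635, 1037 and 11242 in chitosan brains, against 42.7, 37.6 and 40.4 in chitosan stomachs. Its mock values were 519, 438 and 584 in brain, against 41.5, 48.9 and 40.2 in stomach. Chitosan brain 3 read more than the other brain arrays by a wide margin, and Stmn3 was at least 28.1-fold higher in chitosan brains (limma adjusted p = 0.00138; at least 11.7-fold without chitosan brain 3 and 49.3-fold without chitosan brain 1) and at least 7.41-fold higher in mock brains (adjusted p = 0.0231).

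Stmn2 (SCG10), a stathmin of growth cones, had 129.9, 178 and 94.0 in chitosan brains, against 49.8, 45.0 and 47.5 in chitosan stomachs. In mock mice it had 77.8, 104 and 116 in brain, against 47.1, 49.4 and 52.3 in stomach. All stomach arrays were below the line, so that Stmn2 was at least 1.87-fold higher in chitosan brains (limma adjusted p = 0.00134) and at least 1.42-fold higher in mock brains (adjusted p = 0.0161).

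Nefh, the heavy neurofilament subunit, had 108, 93.8 and 113 in chitosan brains, against 52.2, 57.0 and 76.1 in chitosan stomachs, where 1 array was above the line. Mock brains had 186, 195 and 157, against 59.1, 48.9 and 52.3 in mock stomachs. The log2 difference was 0.78 ± 0.17 in chitosan mice (limma adjusted p = 0.0268, and 0.0526 with the replicate block), and in mock mice Nefh was at least 2.60-fold higher in the brain (adjusted p = 7.34e-05). Mapt, which encodes tau, was the only microtubule-associated protein of 12 above background. It had 101, 157 and 65.1 in chitosan brains and 46.4, 82.5 and 116 in mock brains, with stomach arrays at 42.7 to 47.9, and did not pass the test (limma adjusted p = 0.0818 in chitosan mice and 0.263 in mock mice).

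The dynein chains split. Dync1h1, the heavy chain that holds the motor, had 230.3, 165 and 319.9 in chitosan brains, against 115, 134 and 251 in chitosan stomachs, groups that overlapped (log2 difference 0.55 ± 0.41, limma adjusted p = 0.68). In mock mice it had 360.2, 448 and 352 in brain, against 155, 88.9 and 155 in stomach, and was higher in the brain (1.58 ± 0.41, adjusted p = 0.0477). Dynlt1, a Tctex-type light chain, was lower in the brain of mock mice, with 109, 115 and 108, against 458, 386 and 532 in stomach (-2.04 ± 0.34, adjusted p = 0.00332). In chitosan mice its values were 123, 114 and 56.5 in brain, against 176, 148 and 212 in stomach, which did not pass (-0.93 ± 0.34, adjusted p = 0.227). Dynll2, an LC8-type light chain, was at least 1.52-fold higher in chitosan brains than in chitosan stomachs (adjusted p = 0.00531). In mock mice it was at least 1.17-fold higher in the brain without passing the test (adjusted p = 0.211). Its second probe passed in both treatments, with 0.46 (adjusted p = 0.0194) and 0.67 (adjusted p = 0.00126). That probe was under the line on all stomach arrays and on chitosan brains 1 and 2, so its differences lie near the floor. Dync1i2, Dync1li1 and Dynlrb1 had log2 differences between -0.33 and 0.25 and were called in neither treatment.

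**Figure D2:**
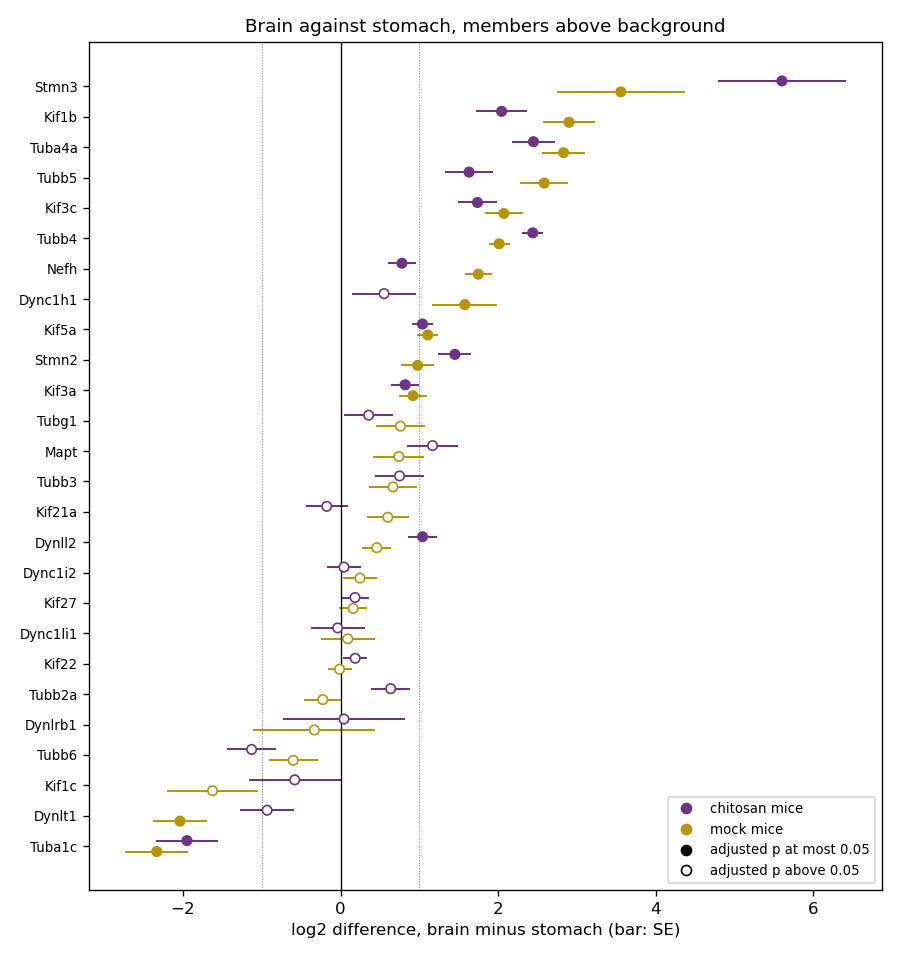
Fitted log2 difference of the measured values, brain minus stomach (points, with the SE of the limma fit as bars), for the 26 genes above background, in chitosan mice (purple) and mock mice (gold), filled where the adjusted p is at most 0.05. Filled on the right in both colors are 10 genes, with Stmn3 farthest out, and Tuba1c is filled on the left in both. Genes under the line on all arrays of an organ, Stmn3 and Tuba1c among them, have only lower bounds, given in the text. No bound is given for Tubb6 and Mapt, which were also under the line on arrays of the brighter organ.

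Leaving out single arrays ended some of these calls. Stmn3 in mock mice lost its call without any one of the 6 mock arrays (limma adjusted p = 0.0594 to 0.0817), and Dync1h1 without 10 of the 12 arrays (0.0502 to 0.197). Stmn2 in mock mice lost it without mock brain 2 or 3 or mock stomach 1 or 2 (0.0553 to 0.0703). In chitosan mice, Tuba1c lost its call without chitosan brain 1 (0.0743), Kif3a without chitosan brain 1 or 2 or chitosan stomach 1 or 3 (0.0644 to 0.122), and Nefh without chitosan brain 1 or 3, chitosan stomach 1 or 2 or mock stomach 3 (0.0594 to 0.132). Mapt in chitosan mice passed without chitosan brain 3 (0.0157) or mock brain 1 (0.0315), and Tubb6 without chitosan stomach 3 (0.00582) or mock stomach 2 (0.0258).

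Other genes of microtubules, transport and axons, a list of 73 symbols of which 65 were measured, served for comparison. In chitosan mice 6 of the 65 were higher in the brain and 1 was lower, and in mock mice 4 were higher and 3 lower (10.8% in each). Kifc2, a kinesin of dendrites, differed by 4.95 in chitosan mice and 4.27 in mock mice on the log2 scale, and Fez1, an adaptor of kinesin-1 that was under the line on all stomach arrays, was at least 12.3-fold and at least 10.8-fold higher in the brain. Vim, the intermediate filament of mesenchymal cells, was lower in the brain, at -2.59 and -2.17. The genes outside the 75 whose profile over the 12 arrays was most like the median of the 10 brain-high genes were Hpca and Hpcal4 (each r = 0.9958), Fezf2 (0.9957), Snrpn (0.9956) and Epb4.1l1 (0.9953). These correlations over 12 arrays rest mostly on the gap between 6 brain and 6 stomach arrays, and are given as a description.

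The comparison of chitosan with mock asked whether the genes responded to chitosan in each organ. None did by the test. In the brain, 0 of 75 genes passed (0% of all genes), with a smallest adjusted p of 0.765 in limma, and 7 had an unadjusted p under 0.05 (9.33%, against 7% of all genes), 3 higher (4.13% of all genes were) and 4 lower (2.87%) in chitosan brains. The median log2 difference was 0.01 for the 75 genes and -0.01 for all genes. Chitosan and mock arrays did not overlap for 13 of 75 genes (17.3%, against 12.1% of all genes). With 3 arrays against 3, the smallest p that an exact two-sided permutation test allows for 1 gene is 0.1. The methods' t-test gave 5 genes under its threshold in the brain, against 6.13% of all genes, and 0 after adjustment.

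The 1 gene with a 2-fold difference of mean log2 values in the brain (0.486% of all genes) was Stmn3, with 635, 1037 and 11242 in chitosan brains, against 519, 438 and 584 in mock brains. The groups did not overlap, but the log2 difference of 1.93 ± 0.98 (limma adjusted p = 0.769) was 0.67 without chitosan brain 3, and no gene of the 75 was then at 2-fold. The highest chitosan array exceeded the next by a larger factor than that array exceeded any mock array. Linear means were 4304 in chitosan brains and 514 in mock brains. The paper also lists Stmn3 as raised in the brain, with a standard error above its fold change. That fold change is larger than the 3.82-fold from mean log2 values here, but close to the ratio of the linear means above.

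Tubb2a, a beta-tubulin of neurons, had 100.3, 145 and 85.5 in chitosan brains, against 74.2, 66.5 and 53.5 in mock brains, and Tubb4 had 252, 222 and 215, against 158, 178 and 159.8. For both, every chitosan brain lay above every mock brain. The log2 differences were 0.75 ± 0.23 (limma adjusted p = 0.765, unadjusted p = 0.014) and 0.47 ± 0.34 (adjusted p = 0.773). Stmn2 (0.41 ± 0.31), Mapt (0.41 ± 0.41) and Dynll2 (0.39 ± 0.24) had differences above 0 with overlapping groups, and the second probe of Dynll2 gave -0.24.

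Tubb5, the brightest gene of the 75 in mock brains, had 888, 782 and 1042 in chitosan brains, against 1454, 1644 and 1356 in mock brains, without overlap (log2 difference -0.72 ± 0.24, limma adjusted p = 0.765, unadjusted p = 0.0182). Its dimmer probe gave -0.12. Nefh had 108, 93.8 and 113 in chitosan brains, against 186, 195 and 157 in mock brains, also without overlap (-0.77 ± 0.27, adjusted p = 0.765, unadjusted p = 0.0219). Dync1h1 (-0.74 ± 0.45), Kif1b (-0.55 ± 0.38), Kif21a (-0.49 ± 0.20) and Kif3a (-0.44 ± 0.25) had lower values in all 3 chitosan brains than in any mock brain, and Tubg1 (-0.48 ± 0.36) had overlapping groups. Kif21a, a kinesin linked in humans to eye movement disorder, had 79.7, 85.9 and 65.1 in chitosan brains, against 88.9, 115 and 119.9 in mock brains.

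Neuron markers did not separate the brain groups in the sums given above, whereas the 5 measured striatum markers summed to 379 to 422 in chitosan brains and 283 to 309 in mock brains. Of these 5, Ppp1r1b and Rgs9 were not above background in any group. The widest gap was that of Penk1, with means of 107 in chitosan brains and 47.8 in mock brains. Drd1a had means of 89.1 and 68.1, and Drd2 98.9 and 73.7, but for both the chitosan and mock arrays overlapped. The paper reports Penk1 itself as upregulated by chitosan in the brain. The part of brain regions in the differences between chitosan and mock brains was not tested. Among the 24 genes above background in the brain, chitosan brain 3 was the lowest of the 6 arrays for 9 genes and chitosan brain 2 for 7, and chitosan brain 2 and mock brain 2 were each the highest for 7.

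**Figure D3:**
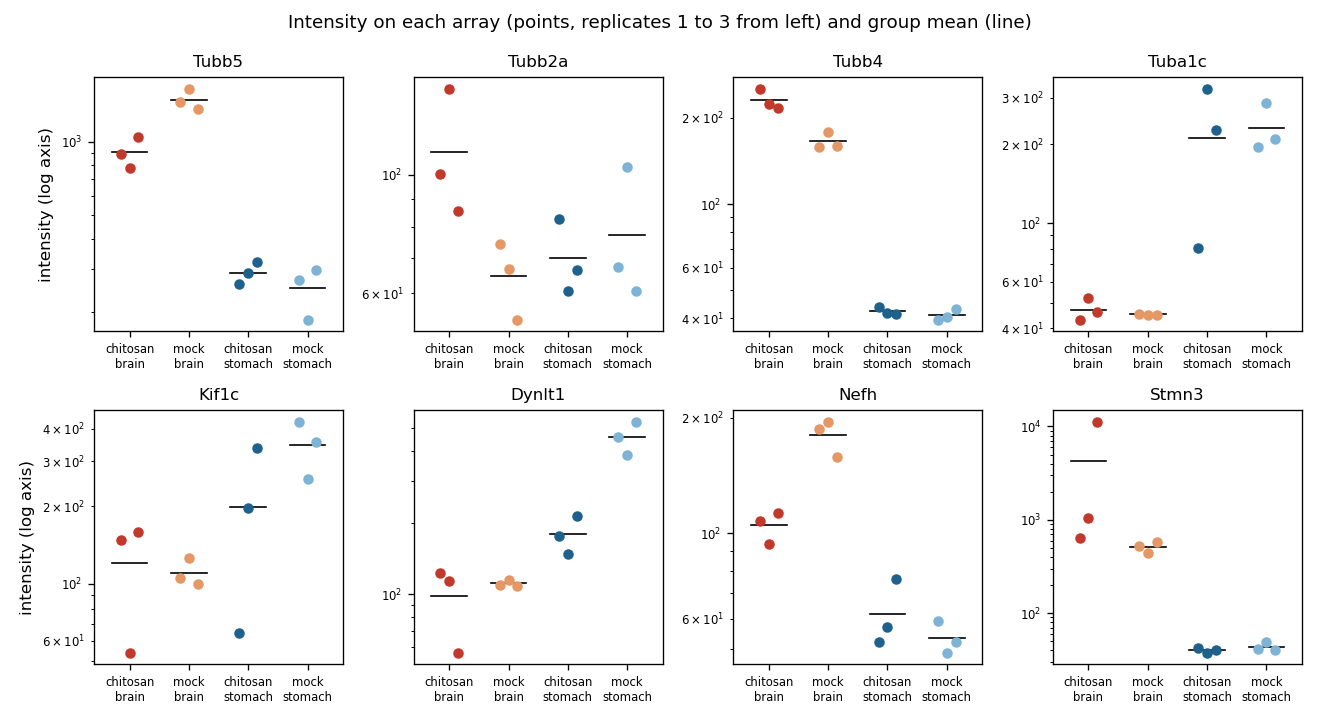
Intensity (log axis, different range in each panel) of 8 genes on each array (points, replicates 1 to 3 from left) with the group mean (line), for chitosan brain, mock brain, chitosan stomach and mock stomach. Tubb5 and Nefh lie lower and Tubb2a and Tubb4 higher in all chitosan brains than in mock brains, Dynlt1 lies lower in all chitosan stomachs than in mock stomachs, and chitosan brain 3 stands alone for Stmn3.

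In the stomach, 0 of 75 genes passed (0% of all genes), with a smallest adjusted p of 0.853 in limma, and 2 had an unadjusted p under 0.05 (2.67%, against 6.01% of all genes), both lower in chitosan stomachs (3.91% of all genes were). The median log2 difference was 0.02 for the 75 genes and 0.01 for all genes. The groups did not overlap for 7 of 75 genes (9.33%, against 12.9% of all genes), 6 of them below the background line in the stomach. The methods' t-test gave 2 genes under its threshold, against 6.44% of all genes, and 0 after adjustment.

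At a 2-fold difference of mean log2 values stood 2 genes (0.762% of all genes), both lower in chitosan stomachs (0.588% of all genes were). Dynlt1 had 176, 148 and 212 in chitosan stomachs, against 458, 386 and 532 in mock stomachs, and the groups did not overlap (log2 difference -1.36 ± 0.49, limma adjusted p = 0.853, unadjusted p = 0.0251). Leaving out any stomach array kept its difference between -1.50 and -1.23. Kif1c had 64.2, 196 and 336 in chitosan stomachs, against 427, 255 and 358 in mock stomachs, with overlap (-1.06 ± 0.69, adjusted p = 0.853). Its value was -0.40 without chitosan stomach 1, and -0.90 without mock stomach 1, both under 2-fold. The linear means of Kif1c, 199 in chitosan and 346 in mock stomachs, were also under 2-fold apart. Its second probe gave -0.12 (limma adjusted p = 0.924).

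The other large differences in the stomach overlapped between groups. Tubb6 had 151, 130.0 and 66.2 in chitosan stomachs, against 55.2, 123 and 65.1 in mock stomachs (0.52 ± 0.41), and Tuba1c had 80.7, 324 and 226, against 195, 287 and 209.9 (-0.33 ± 0.61). Kif3a had 52.2, 69.0 and 52.8 in chitosan stomachs, against 74.2, 66.0 and 79.1 in mock stomachs (-0.34 ± 0.14, unadjusted p = 0.0447). Kif22, which binds chromosome arms in mitosis (-0.27 ± 0.13), and Kif27, a kinesin related to the hedgehog regulator Kif7 (-0.16 ± 0.18), also had values under 0. Kif1b (0.31 ± 0.26), Kif21a (0.29 ± 0.30), Dync1h1 (0.28 ± 0.44), Tubb5 (0.23 ± 0.49) and Dync1li1 (0.22 ± 0.31) had values above 0.

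Summed cell type markers of the stomach samples moved with treatment. Summed markers were 529 to 835 in chitosan stomachs and 2719 to 2914 in mock stomachs for parietal cells (4 genes). They were 480 to 642 and 2735 to 3896 for chief cells (3 genes, Pga5 not above background). For mucous cells they were 725 to 2647 and 4620 to 11977 (5 genes, Muc5ac and Muc6 not above background). Gif, with means of 247 in chitosan and 1121 in mock stomachs, was counted in both the parietal and the chief cell sums. Smooth muscle markers (6 genes, Cnn1 not above background) summed to 12960 to 16034 in chitosan stomachs and 7180 to 8899 in mock stomachs. Acta2, with means of 8123 and 4553, made up the largest part of these sums. Squamous epithelium markers of the forestomach (5 genes) summed to 18610 to 22152 and 13880 to 15745. Markers of enteric neurons and glia (6 genes) were not above background in the stomach, at 297 to 305 in chitosan and 291 to 301 in mock stomachs. The part of these shifts in the values of Dynlt1 and Kif1c was not tested.

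**Figure D4:**
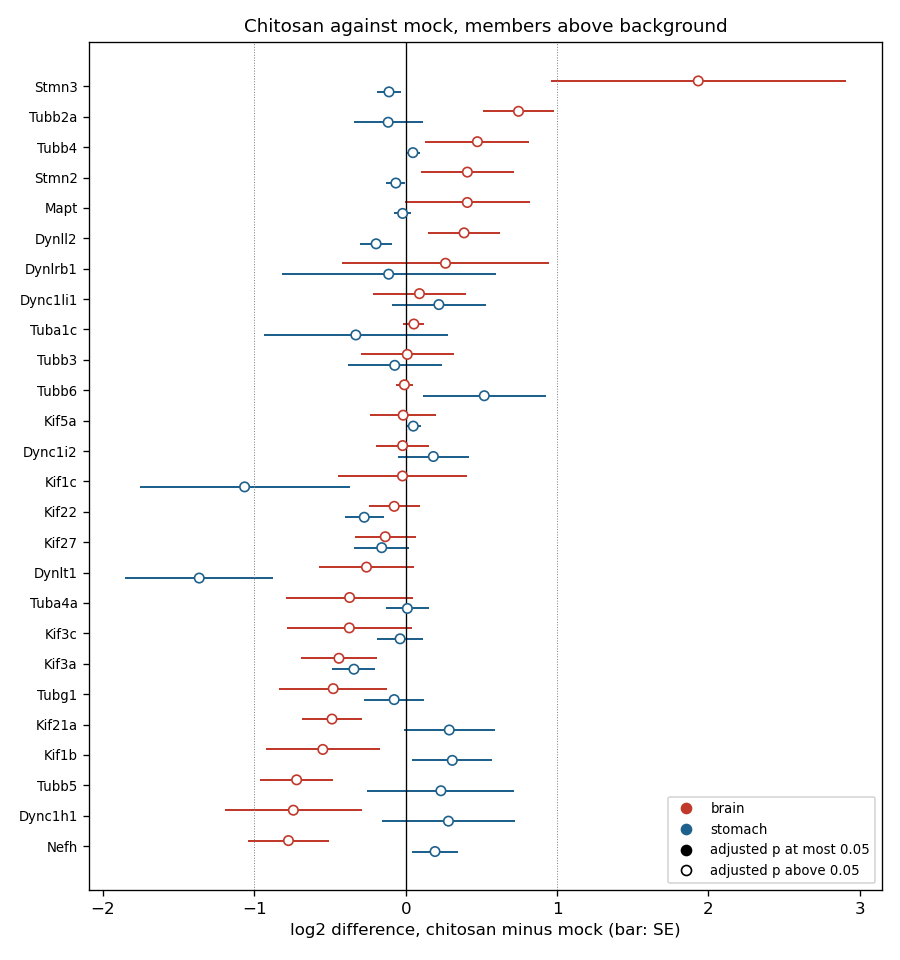
Log2 difference, chitosan minus mock (points, with the SE of the limma fit as bars), in the brain (red) and the stomach (blue) for the 26 genes above background, with dotted lines at 2-fold. All points are open, since no adjusted p is at most 0.05, and the points beyond the dotted lines are Stmn3 in the brain (1.93) and Dynlt1 (-1.36) and Kif1c (-1.06) in the stomach.

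The interaction, that is chitosan minus mock in the brain minus the same difference in the stomach, was tested over all 12 arrays. It was called for 0 of 75 genes, against 0.36% of all genes, and 9 of 75 (12%) had an unadjusted p under 0.05, against 10.1% of all genes. Nefh had the smallest p of the 75, with -0.97 ± 0.25 (limma adjusted p = 0.201). Tubb2a (0.86 ± 0.35), Dynlt1 (1.11 ± 0.48) and Tubb4 (0.43 ± 0.19) followed among genes above background, with adjusted p of 0.469, 0.509 and 0.514.

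Within groups, some genes moved together from array to array. Dynlrb1, a roadblock-type dynein light chain, had 151, 268 and 46.0 in chitosan brains and 123, 53.2 and 165 in mock brains, and 246, 158 and 44.0 in chitosan stomachs and 81.5, 256 and 104 in mock stomachs. Dync1li1, a light intermediate chain, had 77.8, 106 and 47.8 in chitosan brains and 103, 88.9 and 46.4 in chitosan stomachs, so both genes were lowest on the third array of each chitosan group. Dync1h1, Nefh and Tubb5 had their highest value of those groups on the same 2 arrays. Arrays differ in how many distinct intensities they hold, 648, 947 and 447 in chitosan brains, 357, 308 and 382 in mock brains, 651, 446 and 268 in chitosan stomachs and 632, 884 and 579 in mock stomachs, and Dynlrb1 was highest where this number was highest in all 4 groups. The pattern was not confined to these genes: deviations from the group mean followed those of Dynlrb1, in the same or the opposite sense, at an absolute correlation of at least 0.7 for 10 of 25 other genes of this set above background (40%) and for 46.8% of 3754 other genes above background. These correlations share arrays and normalization and are a description over 12 arrays.

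**Figure D5:**
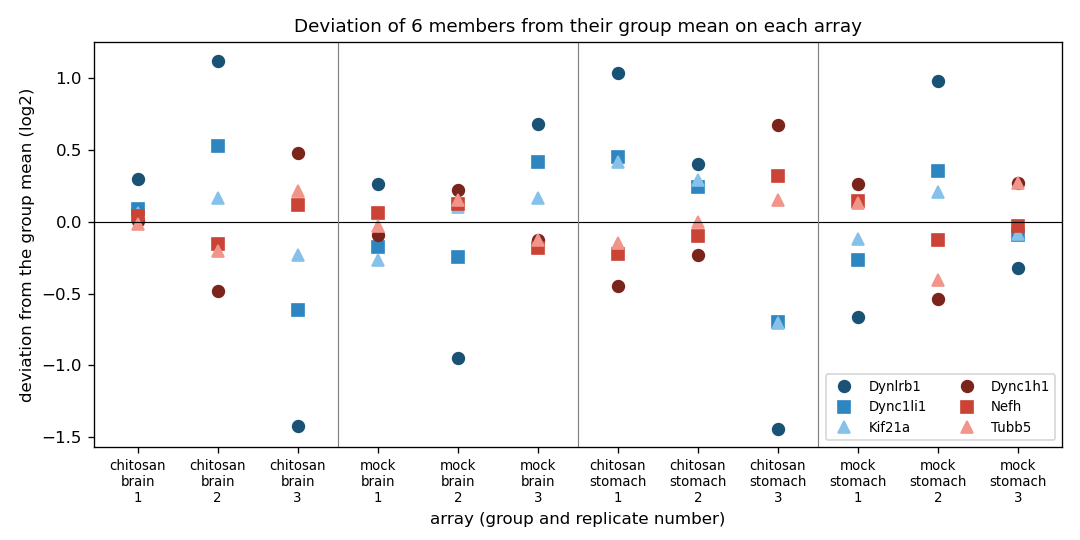
Deviation of the log2 intensity from the group mean on each of the 12 arrays for Dynlrb1, Dync1li1 and Kif21a (blue) and Dync1h1, Nefh and Tubb5 (red). On chitosan brain 3 and chitosan stomach 3 the 3 blue genes lie below 0 and the 3 red genes above it, and on chitosan brain 2 the order is turned round.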

How the data were processed

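Gene expression was measured with 12 single-color arrays, 3 in each of 4 groups that were taken from the sample labels. The authors corrected for background, filtered control and noisy spots and normalized with limma (method and version not given in the sources used here). The deposited values are linear intensities without a missing value. All arrays share 1 highest value, and each has a floor near which differences of dim genes are compressed. Arrays give no counts, so the precision rests on 3 arrays for each group.

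Here the values were only log2-transformed. Linear models of limma 3.58.1 in R 4.3.3 (lmFit, then eBayes with an intensity trend) were fitted to all 29922 probes: the 6 arrays of an organ for chitosan against mock, and all 12 arrays as 4 groups for brain against stomach and for the interaction. The Benjamini-Hochberg adjustment covered every probe, with a threshold of 0.05. Where every array of the dimmer organ lay under 2 times its own lowest intensity, the difference was computed with these arrays at that line. It was given as a lower bound, except where arrays of the brighter organ were also under their line. The 2-fold criterion was applied to the difference of mean log2 values. The script was tested on simulated data.

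Probes were named from the annotation of the array, which gives 1 symbol for 21020 probes and none for 8902. For current names, 62 of the 75 symbols matched RefSeq as they stand, 12 by an older symbol and 1 (Dynlt1) did not. Genes were named by role, by the 6 largest differences in each direction for chitosan and by the 8 largest called differences between organs. The genes and lists were chosen with earlier results of these data known.

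The replicate numbers were checked over 2563 probes with a mean above 80. Deviations from the group means of same-numbered chitosan brain and chitosan stomach arrays correlated at r of 0.123 to 0.601 (3 pairs). Other numbers gave -0.637 to 0.567, so the ranges overlapped. Same-numbered mock brain and mock stomach arrays gave -0.303 to -0.0397. Chitosan brain 2 with mock stomach 2, which are from different mice, gave 0.611. These values therefore cannot tell whether same-numbered organs came from 1 mouse. Alternatives were other normalizations, filters, probes and models, the methods' t-test and leaving out each array.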

Additional observations from a re-analysis of the deposited data

How the results depend on the processing

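Under all alternatives run, 0 of the 75 genes were called for chitosan against mock in either organ or for the interaction, also without each array in turn (0 to 0). The median log2 difference of the 75 genes stayed between -0.01 and 0.02 in the brain and between 0.01 and 0.03 in the stomach when single arrays were left out. The genes at 2-fold numbered 0 to 1 in the brain, 0 only without chitosan brain 3, and 1 to 2 in the stomach when single arrays were left out. In the stomach, 1 gene was at 2-fold with the mean of a gene's probes and 1 with the ratio of linear means, against 2 as reported. The called genes between organs numbered 9 (without chitosan brain 1) to 17 (without chitosan brain 3) in chitosan mice and 10 (without mock brain 3) to 13 in mock mice. In chitosan mice, 12 genes were called as reported, 6 with only the 6 chitosan arrays, 7 with the replicate block in these 6 arrays (an alternative chosen after seeing the data) and 4 by the methods' t-test. In mock mice, 16 genes were called with only the 6 mock arrays, against 13 as reported. The methods' t-test called 11 genes in mock mice, and at its own threshold, without adjustment, counted 16 genes in chitosan mice and 19 in mock mice. The replicate block in the 12 arrays ended the call of Nefh in chitosan mice (adjusted p = 0.0526) and changed no other call. Same-numbered chitosan and mock arrays did not deviate together in the brain (r of -0.371 to -0.000799) or consistently in the stomach (-0.41 to 0.578). Signal limits the rest: 49 of the 75 genes were never above background, and the cause of the lost calls was not tested.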
